A study of Mus musculus with 11 samples.

Results

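Fatty acid and branched-chain amino acid oxidation was examined through 45 genes, chosen by name from the 29307 genes of the deposited count table, in liver sinusoidal endothelial cells (ECs) of mice with and without a microbiota. RNA was sequenced from ECs of 6 conventionally raised (CONV-R) and 5 germ-free (GF) mice, with 1 library per mouse. All were male C57BL/6J mice 10 to 12 weeks old on the same standard diet. The GF animals came from sterile isolator colonies and the specific-pathogen-free CONV-R animals descended from those colonies, but the cages and isolators of single mice are not given in the sources used here, so microbiota and housing cannot be told apart. ECs were enriched by CD146 beads, then sorted on CD146, CD31 and CD105, and equal amounts of RNA were amplified before library preparation. The authors report far fewer sorted ECs and much less RNA from GF than from CONV-R livers, and a low viability of the sorted cells. These yields differ with the groups, so they cannot be told apart from microbiota either.

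Long-chain fatty acids are joined to coenzyme A, carried into mitochondria as carnitine esters and shortened in repeated rounds of dehydrogenation, hydration, a second dehydrogenation and thiolysis. Leucine, isoleucine and valine lose their amino group, pass the branched-chain ketoacid dehydrogenase and then follow steps of the same chemistry. The acyl-CoA dehydrogenases of both routes hand their electrons to the electron transfer flavoprotein. Hepatocytes are the liver cells best known for this pathway, whereas ECs also use fatty acid carbon for nucleotide synthesis and redox balance.

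Libraries held 7922855 to 14669352 counts in CONV-R and 7242717 to 16164588 in GF mice. The sinusoidal label fitted its markers: 10 sinusoidal genes such as Stab2 and Clec4g summed to 32540 to 40690 CPM (counts scaled to library size with edgeR's TMM factors) in CONV-R and 31150 to 44390 in GF mice. Summed hepatocyte markers (18 genes, Alb among them) stayed between 31.6 and 90.1 CPM in all mice, with a GF to CONV-R ratio of 1.13 (exact two-sided permutation p = 0.522 over all 462 splits of the mice) that was 0.985 without GF mouse 1. Of those 18 genes 14 could be tested, and 0 passed the edgeR test described below, with 2 at an unadjusted p under 0.05. Kupffer cell markers (10 genes) summed to 85.1 to 224 CPM in CONV-R and 193 to 912 CPM in GF mice, 2.86-fold higher on average (exact permutation p = 0.0108, adjusted p = 0.0378 over 7 marker lists), and 6 of the 10 passed the edgeR test. Without GF mouse 6, the highest, that ratio was 1.90. Cholangiocyte markers (5 genes) summed to 0.137 to 8.96 CPM in CONV-R and 13.6 to 36.8 CPM in GF mice (exact permutation p = 0.00216, the smallest this design allows, adjusted p = 0.0151). That separation was Spp1's alone, at 0 to 8.47 CPM in CONV-R and 11.98 to 14.7 CPM in GF mice, while Krt19 (0 to 1.21 and 0 to 13.8 CPM) and Epcam (0 to 0.884 and 0 to 8.14 CPM) overlapped. The sum of 10 stellate cell markers had a ratio of 1.36 (exact permutation p = 0.0476, adjusted p = 0.111) and was nearly all Hgf, with means of 171 of 178 CPM in CONV-R and 236 of 243 CPM in GF mice. Lrat, the next most abundant of them, had the opposite sign (4.92 and 1.89 CPM, Log2FC -1.43, edgeR adjusted p = 0.0865). The ratios were 1.24 for sorting markers (exact permutation p = 0.11, adjusted p = 0.192), 1.03 for sinusoidal markers (exact permutation p = 0.63, adjusted p = 0.735) and 1.00 for lymphocyte and NK cell markers (exact permutation p = 1, adjusted p = 1). No listed marker was at 0 in all libraries. The part of Kupffer cell RNA in the results on oxidation genes was not tested, and the covariate fit given below cannot separate it from the group. The part of cells with Spp1 was not tested either. In sorted bulk RNA, fewer cells of a type and less RNA per cell cannot be told apart.

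Of the 45 oxidation genes, 44 passed the count filter and were tested along with 12905 genes in all. The exception was Bckdha, the E1 alpha subunit of the branched-chain ketoacid dehydrogenase, with 0 to 6 counts per library. In GF mice 1 of the 44 rose (2.27%) and 3 fell (6.82%) at an adjusted p under 0.05 by edgeR's quasi-likelihood test. Of all genes tested, 7.48% passed in either direction, 4.8% as higher and 2.67% as lower in GF mice. The 4 oxidation genes are 9.09% of those tested, close to the background share. The highest value of one group lay below the lowest of the other for 3 of the 44 (6.82%), against 5.59% of all genes. At an unadjusted p under 0.05 the shares were 25% of the oxidation genes and 23% of all genes. The median log2 fold change (Log2FC, GF relative to CONV-R) was -0.06 over the oxidation genes and -0.01 over all genes, and 43.2% and 49.1% of these were positive.

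The gene that rose was Acadsb, which encodes the dehydrogenase acting on 2-methyl-branched acyl-CoA from isoleucine. Those that fell were Acsl3, an acyl-CoA synthetase, Decr1, the mitochondrial dienoyl-CoA reductase needed for polyunsaturated fatty acids, and Mccc2, the beta subunit of the leucine pathway's methylcrotonyl-CoA carboxylase. The 250 bases before the RefSeq start (GRCm38.p6) are shown for the called genes that RefSeq's promoter table holds, since these are the sequences upstream of the genes that differed. They are written 5′ to 3′ on the gene's strand, with capitals marking GC boxes (GGGCGG) and CCAAT boxes (CCAAT) on either strand.

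Acsl3, chr1:78657575-78657824, plus strand: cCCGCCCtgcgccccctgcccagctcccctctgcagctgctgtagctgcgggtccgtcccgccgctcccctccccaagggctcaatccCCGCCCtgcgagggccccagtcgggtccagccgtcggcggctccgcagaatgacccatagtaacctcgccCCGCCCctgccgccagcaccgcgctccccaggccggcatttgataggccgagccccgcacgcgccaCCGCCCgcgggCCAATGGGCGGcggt

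Acadsb, chr7:131410351-131410600, plus strand: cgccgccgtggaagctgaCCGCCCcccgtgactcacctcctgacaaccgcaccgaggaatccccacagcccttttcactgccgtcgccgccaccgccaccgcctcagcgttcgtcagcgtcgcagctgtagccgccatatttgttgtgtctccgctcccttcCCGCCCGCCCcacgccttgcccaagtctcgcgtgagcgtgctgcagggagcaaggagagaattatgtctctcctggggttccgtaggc

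Mccc2, chr13:100015640-100015889, minus strand: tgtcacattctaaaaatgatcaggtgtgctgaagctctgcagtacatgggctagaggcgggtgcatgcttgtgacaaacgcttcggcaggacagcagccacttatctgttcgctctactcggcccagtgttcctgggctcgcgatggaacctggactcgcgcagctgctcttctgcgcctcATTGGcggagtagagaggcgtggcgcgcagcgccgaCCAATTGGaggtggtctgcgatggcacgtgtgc

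No window was matched for Decr1. The windows of Acsl3 and Acadsb held GC boxes, and in Acadsb a pair of these overlapped. The Acsl3 window also held a CCAAT box, directly next to a GC box. The Mccc2 window held CCAAT boxes, of which a pair on opposite strands overlapped, and no GC box. RefSeq windows were matched to 39 of the 45 genes (43 windows, since some genes have several). A GC box was found in 60.5% of these windows and in 32.7% of all 32851 windows. CCAAT was found in 46.5% and 33.9%. The nuclear receptor half-site AGGTCA occurred in 16.3% and 14.0%, in Cpt1a, Cpt1c, Acadvl, Acadm, Echs1, Bckdhb and Pcca. The longer TCAAGGTCA, which contains the half-site and is the form bound by estrogen-related receptors, occurred in 0 of 43 windows and 0.39% of all windows. These are matches of letters, not sites, and the set of all windows was not matched to the oxidation genes for expression or GC content.

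Acadsb (chr7:131410601-131448944, plus strand, GRCm38) measured 114 CPM in the lowest, 129 in the median and 140 in the highest of the 6 CONV-R mice. In the GF mice it measured 229, 291, 211, 253 and 251 CPM. Every GF mouse was above every CONV-R mouse, and the lowest GF value was well clear of the highest CONV-R value. The means were 128 ± 10.4 (SD, n = 6) and 247 ± 29.9 CPM (SD, n = 5), a 1.93-fold difference (Log2FC 0.95, SE 0.11, edgeR adjusted p = 3.47e-05). None of its exonic bases were shared with another gene. It was called with every library left out in turn and in every alternative analysis.

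Acsl3 (chr1:78657825-78707743, plus strand) activates long-chain fatty acids at the endoplasmic reticulum and lipid droplets. Its CONV-R values ran from 31.6 through a median of 36.7 to 67.3 CPM, and its GF values were 25.5, 24.2, 27.3, 25.9 and 26.0 CPM. The groups did not overlap, and CONV-R mouse 3 lay far above the other 5 CONV-R mice (31.6 to 39.6 CPM). The means of 40.8 ± 13.3 (SD, n = 6) and 25.8 ± 1.15 CPM (SD, n = 5) gave a Log2FC of -0.66 (SE 0.18, edgeR adjusted p = 0.0327), and without CONV-R mouse 3 the Log2FC was -0.46 (edgeR adjusted p = 0.0258).

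Decr1 (chr4:15917240-15945507, minus strand) measured 33.0, 36.2 and 39.4 CPM in the lowest, median and highest CONV-R mouse and 27.7, 25.5, 28.4, 25.7 and 25.8 CPM in the GF mice. Here too the groups were separate, with a small spread in each. The means were 36.3 ± 2.94 (SD, n = 6) and 26.6 ± 1.35 CPM (SD, n = 5), with a Log2FC of -0.45 (SE 0.12, edgeR adjusted p = 0.0298).

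Mccc2 (chr13:99948530-100015639, minus strand) ran from 11.9 through 15.3 to 25.4 CPM in CONV-R mice and measured 9.42, 10.7, 5.71, 9.92 and 11.9 CPM in GF mice. The groups touched at their edges. Its means of 17.02 ± 5.78 (SD, n = 6) and 9.54 ± 2.34 CPM (SD, n = 5) gave a Log2FC of -0.84 (SE 0.25, edgeR adjusted p = 0.0483).

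**Figure D1:**
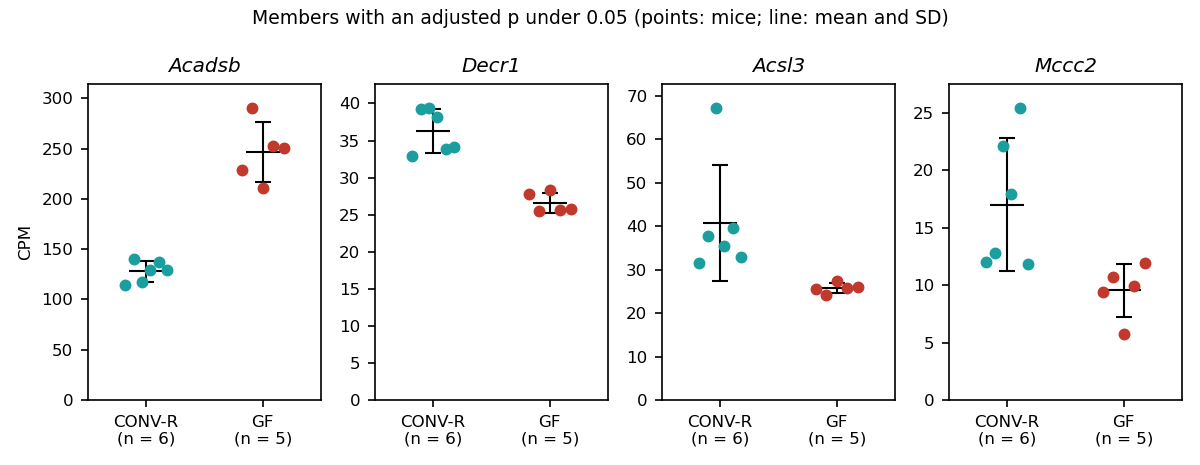
CPM of the 4 oxidation genes with an adjusted p under 0.05, each point 1 mouse, with the mean and SD of 6 CONV-R and 5 GF mice on axes that start at 0. Acadsb was higher in every GF mouse (211 to 291 CPM) than in any CONV-R mouse (114 to 140 CPM), Decr1 and Acsl3 were lower without overlap, and the Mccc2 groups touched.

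The 3 lower calls were near the threshold. Leaving out 1 library in turn, the Acsl3 call was lost without CONV-R mouse 2 or 5 or GF mouse 1, 2, 4 or 6 (edgeR adjusted p = 0.0506 to 0.0691). The Decr1 call was lost without CONV-R mouse 2 or 4 or GF mouse 1, 2 or 6 (edgeR adjusted p = 0.0519 to 0.0713). That of Mccc2 was kept without CONV-R mouse 1 or 6 and lost in the other 9 fits (edgeR adjusted p = 0.0509 to 0.118). With each mouse's summed Kupffer cell markers as a covariate, an analysis added after seeing the data, Acadsb alone of the 44 was called (edgeR adjusted p = 0.00823), while 0.759% of all genes were. The Log2FC in that fit was 0.92 for Acadsb, -0.92 for Mccc2, -0.43 for Acsl3 and -0.32 for Decr1 (edgeR adjusted p = 0.429, 0.664 and 0.59 for these last 3). The marker sum was itself 2.86-fold higher in GF mice on average, so a fit with this covariate cannot separate it from the group.

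Levels between genes were compared as CPM per kilobase of exon, on means over the group means. Exon length was the union of all annotated exons of a gene, such as 1164 bases for Etfb and 11521 for Acox3. These levels and their order therefore depend on the annotation. By this scale 10 of the 45 genes were at 10 or more and 5 were under 1. The highest were Acadl, the long-chain acyl-CoA dehydrogenase, at 39.97, Acsl5 at 39.0 and Acaa2, a mitochondrial thiolase, at 35.1 CPM per kb. They were followed by Etfa at 28.2, Acadsb at 26.1, Mut at 22.9 and Cpt1a at 22.9 CPM per kb. The order was not the same in both groups. In CONV-R mice Acsl5 (37.1 ± 2.12) stood beside Acadl (36.5 ± 2.81) within their SD. There the mean of Acadsb (17.8 ± 1.45 CPM per kb) was below those of Cpt1a (20.5 ± 3.84) and Mut (20.0 ± 3.38), also within their SD. In GF mice Acadsb (34.4 ± 4.16 CPM per kb) was above both. The lowest were Bckdha at 0.087, Cpt1c, the brain-enriched carnitine palmitoyltransferase, at 0.31, Acads at 0.47, Acad10 at 0.73 and Acadvl at 0.77 CPM per kb. The long-chain and very-long-chain dehydrogenases, Acadl and Acadvl, thus lay near opposite ends of the order. Within single CONV-R mice Acadl was 52.0 to 83.0 times Acadvl per kb, and in GF mice 24.97 to 175 times. The 44 tested genes had a median of 5.34 CPM per kb over the 11 libraries, beside 5.10 for all tested genes with a known length.

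3 of the low or unequal genes shared much of their exonic sequence with a neighbour: 61.7% of Bckdha with B3gnt8 on the opposite strand, 42.9% of Acadvl with Dvl2 on the opposite strand, and 58.3% of Etfb, mainly with Gm45233 on the same strand. The next highest share was 15.95% in Bcat2, and 25 of the 45 genes shared no base. Whether counting used strand is not given in the sources used here, so the levels of these 3 genes are uncertain. Acads and Acad10 shared no exonic base and were low as well. Across the 44 tested genes the level per kb was lower where transcript GC content was higher (Pearson's r = -0.419, Spearman's rho = -0.367), against r = -0.0786 and rho = -0.092 across 12883 genes. These points come from the same libraries and amplification.

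**Figure D2:**
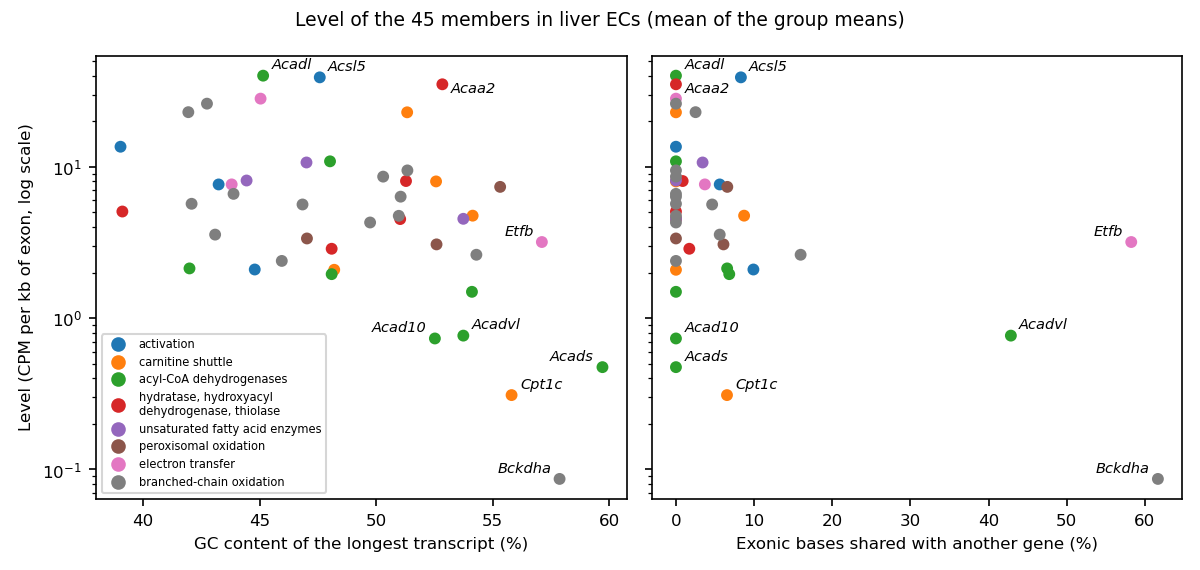
Level of the 45 genes in CPM per kb of exon (log axis) against the GC content of the longest transcript and against the share of exonic bases that lie in another gene, coloured by role. Acadl, Acsl5 and Acaa2 lie above 30, while Cpt1c, Acads, Acad10, Acadvl and Bckdha lie below 1, and Bckdha, Etfb and Acadvl are the genes with over 40% shared bases.

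Among the activating synthetases, Acsl3 fell and the other 3 did not pass, with a Log2FC between -0.16 and 0.13 and edgeR adjusted p-values from 0.461 to 0.746. Acsl5 had the highest level of this group and measured 181 ± 10.3 CPM in CONV-R and 198 ± 23.2 CPM in GF mice. Its SE of 0.10 was the smallest of the 44, and the interval of 2 SE around its Log2FC ran from -0.07 to 0.34. Acsl4, which prefers arachidonic acid, measured 77.3 ± 18.9 and 69.3 ± 8.54 CPM, and CONV-R mouse 3 was lowest at 42.0 CPM, where Acsl3 was highest. Acsl1 had means of 22.7 and 21.2 CPM.

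None of the 5 carnitine shuttle genes passed, with edgeR adjusted p-values from 0.186 to 0.727. Cpt1a, the outer-membrane enzyme that controls entry of long-chain fatty acids, ran from 131 through a median of 146 to 205 CPM in CONV-R mice and measured 216, 148, 238, 183 and 180 CPM in GF mice. The ranges overlapped, and the means of 157 ± 29.4 and 193 ± 34.8 CPM differed by a Log2FC of 0.30 (SE 0.14, edgeR adjusted p = 0.218). Cpt2, its partner at the inner membrane, measured 21.8 ± 4.58 and 16.4 ± 2.78 CPM, a Log2FC of -0.40 (SE 0.18, edgeR adjusted p = 0.186). Both genes had intervals of 2 SE that left out 0, in opposite directions, and neither passed the adjusted threshold. The unadjusted edgeR p was 0.0502 for Cpt1a and 0.0373 for Cpt2. Crat, carnitine acetyltransferase, measured 27.4 ± 4.20 and 23.9 ± 5.14 CPM (Log2FC -0.19). The carrier Slc25a20 measured 10.9 ± 6.12 and 9.30 ± 2.59 CPM, and Cpt1c, with 3 to 44 counts per library, had the widest interval of the group, from 0.08 to 1.86.

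The 8 acyl-CoA dehydrogenases of the straight-chain route also held no call, with a Log2FC between -0.20 and 1.06 and edgeR adjusted p-values from 0.161 to 0.767. Acadl measured 64.8, 73.7 and 79.6 CPM in the lowest, median and highest CONV-R mouse and 77.5, 83.4, 97.6, 70.9 and 106 CPM in GF mice. The groups overlapped (means 73.2 ± 5.63 and 87.1 ± 14.5 CPM, Log2FC 0.25, SE 0.12, edgeR adjusted p = 0.226). Acadm, the medium-chain enzyme, measured 45.4 ± 10.9 and 39.6 ± 4.56 CPM (Log2FC -0.20), and Acad11, which acts on long-chain acyl-CoA, 21.8 ± 5.21 and 20.0 ± 4.22 CPM (Log2FC -0.12). Without CONV-R mouse 3 the Log2FC became -0.07 for Acadm and 0.005 for Acad11, the latter a change of sign. Acadvl, Acads and Acad10 had the largest positive values of the group, at 0.87, 1.06 and 0.65, on means of 0.706 to 5.44 CPM. Their intervals of 2 SE reached from below 0 for Acads, and from 0.08 and 0.11 for the others, to more than a 2-fold rise.

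No gene of the steps that follow passed either. All 5 genes for the hydratase, hydroxyacyl dehydrogenase and thiolase had a Log2FC between -0.07 and 0.25, with edgeR adjusted p-values of 0.383 to 0.994. Hadha and Hadhb encode the 2 subunits of the mitochondrial trifunctional protein and lie head to head on chromosome 5. Hadha measured 66.1 ± 7.04 and 74.4 ± 10.5 CPM and Hadhb 34.2 ± 7.62 and 32.5 ± 6.00 CPM in CONV-R and GF mice. Per kb the ratio of Hadha to Hadhb had a median of 1.58 in CONV-R and 1.72 in GF mice, and the ranges of 0.901 to 2.27 and 1.15 to 2.35 overlapped. Acaa2 measured 48.6 ± 11.4 and 57.7 ± 10.6 CPM (Log2FC 0.25, SE 0.16), and Hadh 22.5 ± 2.46 and 22.4 ± 3.56 CPM (Log2FC -0.003, SE 0.15).

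Of the 3 enzymes for unsaturated fatty acids, Decr1 fell and the isomerases Eci1 and Eci2 did not pass (Log2FC 0.08 and 0.22, edgeR adjusted p = 0.879 and 0.533). Eci2 measured 54.6 ± 15.5 and 63.6 ± 16.6 CPM, and Eci1 measured 9.36 ± 1.77 and 9.92 ± 2.90 CPM. The peroxisomal genes held no call. Acaa1a, a peroxisomal thiolase, measured 34.0 ± 7.996 and 31.0 ± 5.04 CPM (Log2FC -0.13), and Acox3, an oxidase for branched acyl-CoA, 35.3 ± 2.52 and 35.5 ± 4.29 CPM (Log2FC 0.01, SE 0.12). Without CONV-R mouse 3 the Log2FC of Acaa1a became 0.006, a change of sign. Ehhadh, the peroxisomal bifunctional enzyme, measured 8.30, 10.8 and 27.6 CPM in the lowest, median and highest CONV-R mouse and 5.72, 8.21, 7.14, 10.6 and 3.798 CPM in GF mice. Its Log2FC of -0.86 (SE 0.32, edgeR adjusted p = 0.119) became -0.50 without CONV-R mouse 3, which was the highest.

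The electron transfer genes gave a Log2FC of -0.17 for Etfa, -0.40 for Etfb and -0.02 for Etfdh, with edgeR adjusted p-values from 0.547 to 0.939. Without CONV-R mouse 3 the first became 0.01, a change of sign, and the second -0.06. Etfdh, the ubiquinone oxidoreductase, measured 57.8 ± 5.98 and 56.9 ± 3.18 CPM with an interval of 2 SE from -0.25 to 0.20. Etfa and Etfb encode subunits of a dimer, yet per kb Etfa exceeded Etfb by a median of 8.82 times in CONV-R and 9.27 times in GF mice. Etfb is the gene that shares 58.3% of its exonic bases.

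In branched-chain oxidation, Acadsb rose and Mccc2 fell among 13 tested genes. Mut, the cobalamin-dependent methylmalonyl-CoA mutase at the end of the propionate route, came nearest to the threshold among the others. It measured 55.9, 80.1 and 89.4 CPM in the lowest, median and highest CONV-R mouse and 90.2, 110.0, 85.6, 96.3 and 107 CPM in GF mice. A single GF mouse lay within the CONV-R range, and the Log2FC was 0.37 (SE 0.13, edgeR adjusted p = 0.0993). Pccb, the beta subunit of propionyl-CoA carboxylase, measured 24.2 ± 3.15 and 28.2 ± 4.45 CPM (Log2FC 0.21, SE 0.15), and its partner Pcca 27.9 and 30.8 CPM. The other uncalled genes, from the aminotransferase Bcat2 to the hydratase Auh, had a Log2FC between -0.46 and 0.10. The lowest was that of Ivd, the isovaleryl-CoA dehydrogenase of the leucine route, with a Log2FC of -0.46 (SE 0.23, edgeR adjusted p = 0.242) that became -0.18 without CONV-R mouse 3.

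Subunit pairs were set side by side in the leucine pathway and at the ketoacid dehydrogenase. Mccc1, the biotin-carrying subunit of the leucine pathway's carboxylase, measured 42.1 ± 5.68 and 35.9 ± 7.67 CPM (Log2FC -0.23, SE 0.15, edgeR adjusted p = 0.382), beside the fall of Mccc2. Per kb the ratio of Mccc1 to Mccc2 was 0.435, 0.674 and 0.977 in the lowest, median and highest CONV-R mouse and 0.701, 0.910 and 1.41 in the corresponding GF mice. These ranges overlapped and the difference between them was not tested. The ratio depends on annotated exon unions of 10952 bases for Mccc1 and 2802 for Mccc2, and in CPM the mean of Mccc1 was higher in both groups. Bckdhb, the E1 beta subunit, measured 17.02 ± 5.04 and 14.1 ± 5.86 CPM, and its pooled level per kb was 90.6 times that of Bckdha in CONV-R and 102 times in GF mice.

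**Figure D3:**
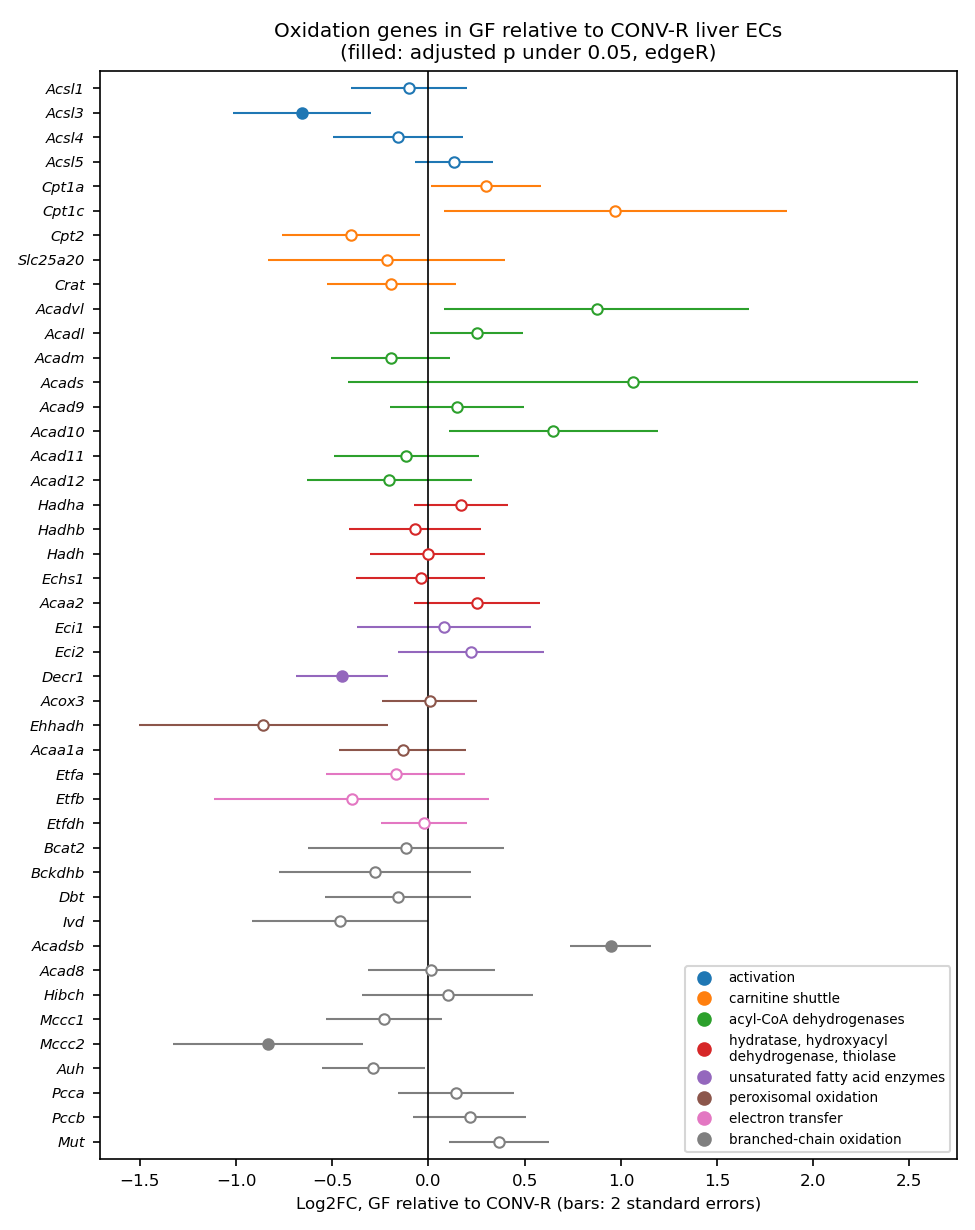
Log2FC of the 44 tested genes, GF relative to CONV-R, with bars of 2 standard errors, coloured by role and filled where the edgeR adjusted p was under 0.05. Acadsb is the only filled point to the right and has a narrow bar, Acads and Cpt1c lie further right with wide bars, Acsl3, Decr1 and Mccc2 are filled to the left, and the widest bar is that of Acads.

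A missed threshold does not show equal levels, but for most genes the data limit the size of a difference. For 34 of the 40 uncalled genes the interval of 2 SE lay within a 2-fold change in either direction. The 6 that could hold a larger one were Cpt1c, Acadvl, Acads, Acad10, Ehhadh and Etfb. Standard errors ran from 0.10 to 0.74 with a median of 0.17. An interval of 2 SE is somewhat narrow here, since that of Cpt1a left out 0 at an unadjusted edgeR p of 0.0502.

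CONV-R mouse 3 stood apart within its group. It had the highest value of the 6 CONV-R mice for 21 of the 44 genes (47.7%), against 29.6% of all genes tested, and the median deviation of the 44 genes from the group median was 0.27 on the log2 scale in this mouse, against -0.01 for all genes. Its library held 7922855 counts, the fewest of the CONV-R group. Ivd measured 76.9 CPM in it and 31.3 to 35.4 CPM in the other 5, Etfa 87.0 against 43.8 to 53.6, Ehhadh 27.6 against 8.30 to 11.6, and Slc25a20 22.7 against 6.21 to 12.03 CPM. In contrast, 8 genes were lowest in it, among them Acsl4, Acadvl, Acadl, Hadha and Mut. Its summed hepatocyte markers, at 57.7 CPM, lay within the range of the other CONV-R mice. So did its summed sinusoidal markers, at 38340 CPM, but among them Stab1 (1729 CPM), Stab2 (6384 CPM), Kdr (3659 CPM) and Flt4 (1247 CPM) were lowest and Fcgr2b (10260 CPM), Clec4g (3275 CPM) and Lyve1 (968 CPM) highest of the group in this mouse. Hgf (91.6 CPM), Eng (1563 CPM) and Pecam1 (412 CPM) were lowest and Spp1 (8.47 CPM) highest in it among the CONV-R mice. Krt19 and Epcam were at 0 in it, and Lrat, at 4.79 CPM, and Mcam, at 269 CPM, lay within the range of the others. Their part in the deviation was not tested. Without this mouse 43 genes could be tested, 6 changed the sign of their Log2FC, all of them uncalled, and the median over the genes was 0.01. The 6 were Slc25a20, Acad11, Hadhb, Acaa1a, Etfa and Acad8. Acsl3, Decr1 and Acadsb were still called, whereas Mccc2 was not (Log2FC -0.75, edgeR adjusted p = 0.0777).

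**Figure D4:**
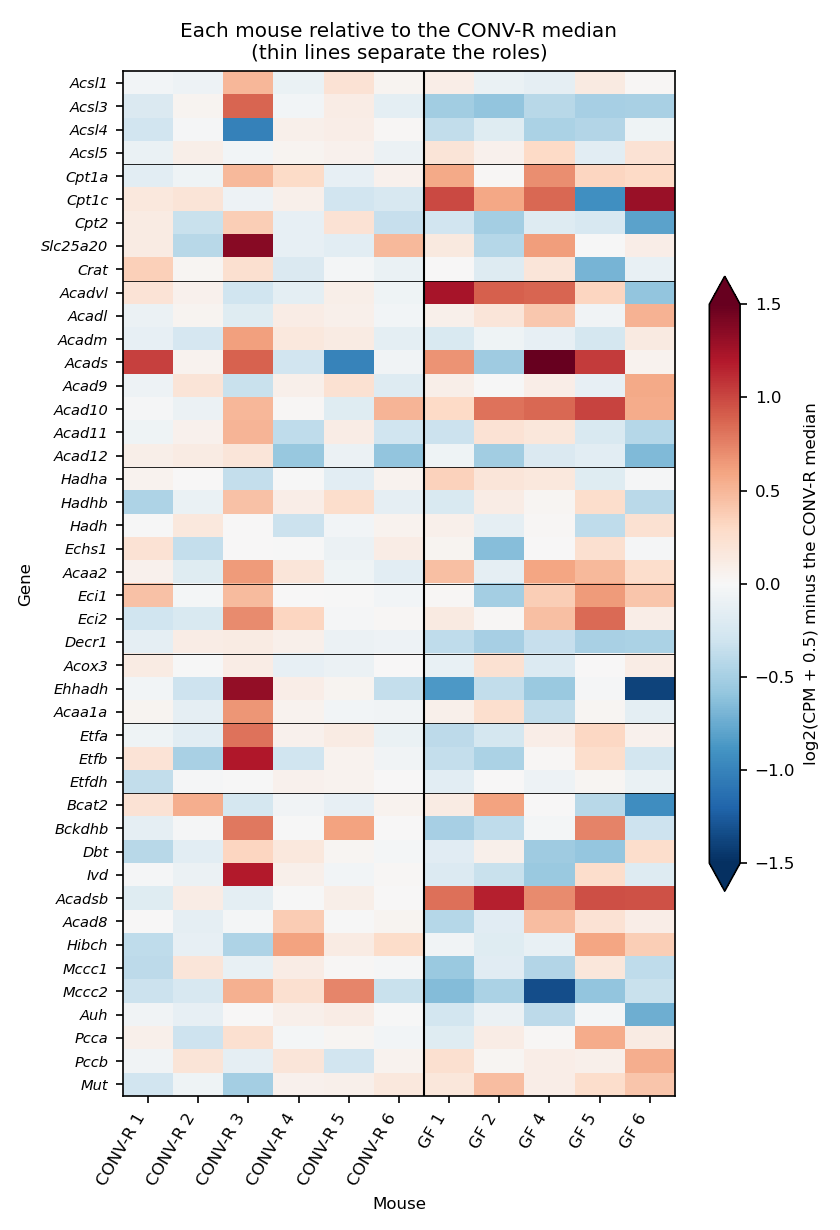
Each tested gene in each mouse as log2(CPM + 0.5) minus the median of the CONV-R mice, with the roles separated by thin lines. Red cells gather in CONV-R mouse 3, which was highest of its group for 21 of 44 genes, and Acadsb is red in all 5 GF mice.

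Other genes of the same pathway and its ketone and control branches were counted from a list of 30, of which 24 were tested. Of the 24 tested, 0 rose and 2 fell by edgeR, beside 4.8% of all genes called as higher and 2.67% as lower. At an unadjusted p under 0.05 there were 6 of the 24, beside 23% of all genes. The median Log2FC was 0.01. Ppm1k, the phosphatase that activates the branched-chain ketoacid dehydrogenase, measured 64.8 ± 11 and 44.99 ± 6.58 CPM (Log2FC -0.52, SE 0.14, edgeR adjusted p = 0.0321). Mmab, an enzyme of the cobalamin cofactor used by Mut, measured 15.8 ± 2.72 and 9.98 ± 2.29 CPM (Log2FC -0.65, SE 0.19, edgeR adjusted p = 0.0479). Each overlapped between the groups. With 1 library left out, the Ppm1k call was lost without CONV-R mouse 4, 5 or 6 or GF mouse 2, 4, 5 or 6 (edgeR adjusted p = 0.0583 to 0.0802), and the Mmab call in 9 fits, all but those without CONV-R mouse 1 or GF mouse 1 (edgeR adjusted p = 0.0504 to 0.103). Mmab was also not called with limma voom, limma on the deposited values or no filter (adjusted p = 0.0558 to 0.0608), nor Ppm1k with a GC offset (edgeR adjusted p = 0.0888). With the Kupffer cell marker covariate neither was called (Log2FC -0.46 for each, edgeR adjusted p = 0.5 for Ppm1k and 0.67 for Mmab).

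Transcription factors and target genes tied to fatty acid use were counted from a list of 20, of which 14 were tested. In GF mice 4 of the 14 were higher and 1 lower, beside 4.8% and 2.67% of all genes, and the list was chosen with earlier results of these data known. Klf15, a fasting- and glucocorticoid-responsive factor that promotes lipid and amino acid catabolism, measured 0.884 to 2.58 CPM in CONV-R mice and 9.88, 7.44, 11.8, 13.9 and 7.46 CPM in GF mice. The separation was complete, at a 6.45-fold difference (Log2FC 2.69, SE 0.30, edgeR adjusted p = 3.75e-05). With limma on the deposited normalized values the Log2FC was 1.92 (adjusted p = 2.41e-05). Pdk4, a kinase that holds back pyruvate oxidation, measured 83.8 ± 15.8 and 153 ± 15.6 CPM (Log2FC 0.87, SE 0.14, edgeR adjusted p = 0.000917). Ucp2, a mitochondrial carrier, rose from 153 ± 49.2 to 339 ± 56.4 CPM (Log2FC 1.14, SE 0.18, edgeR adjusted p = 0.000857). Both were also without overlap.

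Angptl4, a secreted inhibitor of lipoprotein lipase, rose on low counts, with 25 counts over the CONV-R and 101 over the GF libraries (0 to 0.808 against 0.950 to 2.40 CPM, Log2FC 2.46, SE 0.64, edgeR adjusted p = 0.0263). Its size depended on the tool, with a Log2FC of 3.07 with limma voom and 1.43 with limma on the deposited values. Tfam, which maintains mitochondrial DNA, fell from 47.7 ± 6.69 to 34.0 ± 6.25 CPM (Log2FC -0.49, SE 0.14, edgeR adjusted p = 0.0488). The Angptl4 call was lost without CONV-R mouse 2 or 4 or GF mouse 1 or 2 (edgeR adjusted p = 0.0551 to 0.0645), and the Tfam call in 9 of 11 such fits, all but those without GF mouse 4 or 5 (edgeR adjusted p = 0.0533 to 0.121). Tfam was also not called with DESeq2 size factors, no filter, a GC offset or limma on the deposited values (adjusted p = 0.0501 to 0.0614). The median Log2FC of the 14 was 0.35. Ppara, the fatty acid receptor of hepatocytes, had 10 counts over all CONV-R and 9 over all GF libraries and was not tested. With the Kupffer cell marker covariate Klf15 kept its call, with a Log2FC of 2.83. The calls of Pdk4 (Log2FC 0.79, edgeR adjusted p = 0.0799), Ucp2 (0.89, adjusted p = 0.112) and Angptl4 (2.23, adjusted p = 0.38) were lost at somewhat smaller values of the same sign, and that of Tfam at a clearly smaller one (-0.19, adjusted p = 0.826). Pdk4 and Ucp2 were each lowest among CONV-R mice in mouse 3, at 54.1 and 110 CPM.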

How the data were processed

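RNA of sorted liver sinusoidal ECs from 11 mice was amplified and sequenced as single-end reads. The authors trimmed reads with Trim Galore, mapped them to GRCm38 with STAR and counted them with featureCounts. They deposited whole-number counts per gene, and a table normalized across libraries with the DESeq method. The deposited normalized values were read as log2 from their range, since the exact transform is not given in the sources used here, and a Log2FC fitted on them rests on that reading. The annotation release and strand setting of counting are not given in the sources used here.

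Groups follow the sample labels, and a further GF library that the methods describe as removed was not analysed here. Counts were tested with edgeR 4.0.16 in R 4.3.3 (filterByExpr, TMM, quasi-likelihood, Benjamini-Hochberg over 12905 genes, threshold 0.05). A prior count of 2 was used only for log2 CPM in correlations between mice and in the GC offset. DESeq2 1.42.0 and limma 3.58.1 served as alternatives, limma also on the normalized values. SE was the absolute Log2FC divided by the square root of F. Exon lengths, GC content and overlaps came from GENCODE M21. Marker sums were compared with exact two-sided permutation tests. The scripts were tested on simulated data.

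The members and lists were chosen with earlier results of these data known. All members with an adjusted p under 0.05 are named, up to 3 others per role by level per length, and non-members of the pathway lists with an adjusted p under 0.05. Other genes named were chosen after their values were seen. Counting error is limited by 7242717 to 16164588 counts per library.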

Additional observations from a re-analysis of the deposited data

Results flagged for a closer look

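Within a group, 12 of 102 sets of values (11.8%) held a mouse whose gap to the nearest other mouse, as a share of the range, exceeded Dixon's 95% critical value. Chance flags about 1 in 20 such sets. Over the oxidation genes alone the share was 12.5%, and over all genes tested it was 9.94%. For 7 of the 12 the mouse was CONV-R mouse 3, always as the highest value. In it Acsl3 measured 67.3 CPM against 31.6 to 39.6 in the other 5, Slc25a20 22.7 against 6.21 to 12.03, Ehhadh 27.6 against 8.30 to 11.6 and Acaa1a 50.1 against 28.6 to 32.6 CPM. In the same mouse Etfa measured 87.0 against 43.8 to 53.6, Etfb 8.84 against 2.39 to 4.19 and Ivd 76.9 against 31.3 to 35.4 CPM. Over all genes tested this mouse stood apart by the same measure for 9.9%, and for 15.9% of the tested oxidation genes.

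Single values in other mice were Etfdh at 45.9 CPM in CONV-R mouse 1, below 58.7 to 62.0, and Acad8, the isobutyryl-CoA dehydrogenase of the valine route, at 34.5 CPM in CONV-R mouse 4, above 23.8 to 27.1. Bckdhb measured 24.2 CPM in GF mouse 5, above 9.94 to 13.9, and Acad9, an assembly factor of complex I, 22.8 CPM in GF mouse 6, above 13.9 to 16.3. The summed Kupffer cell markers were 912 CPM in GF mouse 6, above 193 to 354 CPM in the other GF mice. Their ratio between the groups was 1.90 without that mouse.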

How the results depend on the processing

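The count of 4 called oxidation genes was also 4 with DESeq2 size factors, with DESeq2 and with at least 10 counts in every library, 3 with limma voom or no filter, and 5 with a GC offset, which adds Mut. Mccc2 was lost with voom (adjusted p = 0.071) and Decr1 with no filter (edgeR adjusted p = 0.0813). The share called over all genes moved as well, from 7.48% to 9.83% with DESeq2, 4.48% with no filter and 8.38% with the GC offset. It was 2 with limma on the deposited normalized values, whose log2 scale was read from their range (Acsl3 and Mccc2 were lost, limma adjusted p = 0.0512 and 0.0658), and 1 with the Kupffer cell marker covariate, where the median Log2FC of the oxidation genes was 0.06. The GC offset and the covariate were chosen after seeing the data. Leaving out 1 library gave 1 to 4 calls, with 4.74% to 9.62% of all genes called: 1 without CONV-R mouse 2 or GF mouse 1, 2 or 6, and 2 without CONV-R mouse 4 or 5 or GF mouse 4. Acadsb was called throughout, with a Log2FC of 0.81 to 1.02 over 10 alternatives (edgeR, DESeq2 or limma adjusted p at most 0.00823) and 0.88 to 1.00 with 1 library left out. Over the same fits Acsl3 ran from -0.72 to -0.43, Decr1 from -0.47 to -0.32 and Mccc2 from -0.93 to -0.61, always negative. The ratio of summed hepatocyte markers ran from 0.985 without GF mouse 1 to 1.25 without CONV-R mouse 5. The cause of these changes was not tested.

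Same-numbered CONV-R and GF mice are different animals, and their deviations correlated at 0.201, 0.0482, -0.0144, 0.024 and 0.0945. Whether the numbers share more than a label is not given in the sources used here and was not tested. A replicate block on the 10 libraries with shared numbers gave 3 calls (Acsl3, Cpt1a and Acadsb), and the same 10 libraries with no replicate block also gave 3 (Acsl3, Decr1 and Acadsb), with 1101 and 931 calls over all genes. Decr1 (edgeR adjusted p = 0.0565 with the replicate block, 0.0361 without) and Ppm1k (0.0566 and 0.0362) lost their calls with the block, whereas Mccc2 (0.095 and 0.0777) and Mmab (0.0944 and 0.0762) were not called in these 10 libraries either way. Tfam was called with the block and not without it (edgeR adjusted p = 0.0434 and 0.0727). Mice 1 and 6 alone correlated best with their own number. Low counts limit Cpt1c, Acadvl, Acads and Bckdha most.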
